A study of Mus musculus with 10 samples.

Results

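The cytochrome P450 genes were followed along the mouse gut in mice that had undergone vertical sleeve gastrectomy (VSG), set against sham-operated mice. The family was taken as every gene of the deposited table whose mouse symbol is Cyp followed by a digit, without Cyp1a1 and Cyp1b1. This gave 101 of the 23079 genes in the table. In VSG the lateral 80% of the stomach was cut away, so that a sleeve of about 20% stayed, while sham mice had their abdomen opened and gentle pressure put on the stomach. Every group consisted of male C57BL/6J mice at 17 weeks of age, with 13 weeks of high-fat feeding, and both surgeries were followed by 3 days of liquid diet before the high-fat diet was given again. There was 1 library of each surgery from each of 5 tissues, namely stomach, duodenum, jejunum, ileum and colon. The labels do not state the number of animals behind a library or the time after surgery, so p-values here reflect only how far these libraries spread, and that spread may be technical.

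P450 enzymes are haem proteins that use oxygen and electrons from NADPH to hydroxylate or epoxidize fat-soluble substrates. Those of the Cyp2 and Cyp3 families clear drugs, plant compounds and other foreign chemicals, most of the Cyp4 family hydroxylate fatty acids and eicosanoids, and others make or break down sterols, bile acids, steroid hormones and vitamins. In the gut they are best known from the villus enterocytes of the upper small intestine, the first cells to meet what is eaten. Cyp3a11, Cyp2b10 and Cyp4a10 are textbook targets in mouse liver of the nuclear receptors PXR (Nr1i2), CAR (Nr1i3) and PPAR alpha (Ppara).

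The 10 libraries held between 36073968 (VSG jejunum) and 79351566 (sham stomach) recovered reads on genes. Of them, 2 held much liver or neural marker RNA that their labels do not name. Over 12 enterocyte markers VSG duodenum summed to 17820 RPKM (reads per kilobase of gene, scaled to library depth), against 8.34 RPKM in the library labelled sham duodenum, and over 15 neural markers to 20.8 RPKM, against 2328 RPKM. VSG stomach had 18900 RPKM over 15 liver markers, all 15 of them at 1 RPKM or more, against 91.0 RPKM in sham stomach. It also held stomach RNA, with 28410 RPKM over 8 stomach markers, against 146000 RPKM in sham stomach. Results that compare surgeries over tissues therefore rest on jejunum, ileum and colon, where ileum and colon markers followed the labels. These tissues were not free of other RNA. Over 8 pancreatic acinar markers VSG jejunum summed to 250.6 RPKM, VSG ileum to 3.48 RPKM and VSG colon to 460 RPKM. Their sham libraries had 2.26, 6.62 and 2.63 RPKM in the same order. The acinar sum was 1619 RPKM in VSG stomach and 2850 RPKM in VSG duodenum. VSG duodenum also had 2061 RPKM over the 8 stomach markers, against 20.5 RPKM in VSG jejunum. Stomach and duodenum are given as values.

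For members with contrasting regional levels, 4 promoter windows are printed, from the 74 members that the RefSeq promoter table (GRCm38.p6) holds. Each runs from 250 bases before to 50 bases after an annotated start, 5′ to 3′ on the gene's strand. Capitals mark CAAAGTCCA, a sequence of the kind bound by HNF4 alpha, a major transcription factor of enterocytes and hepatocytes, and AGGTCA, the core element recognised by many nuclear receptors, each searched on both strands. Cyp3a11 (chr5:145879805-145880104, minus strand) and Cyp2b10 (chr7:25897408-25897707, plus strand) are shown as the members that fall from jejunum to colon. Cyp2c65 (chr19:39060756-39061055, plus strand) and Cyp2c55 (chr19:39006769-39007068, plus strand) are shown as neighbours in 1 gene cluster, of which Cyp2c55 stands out in colon.

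Cyp3a11: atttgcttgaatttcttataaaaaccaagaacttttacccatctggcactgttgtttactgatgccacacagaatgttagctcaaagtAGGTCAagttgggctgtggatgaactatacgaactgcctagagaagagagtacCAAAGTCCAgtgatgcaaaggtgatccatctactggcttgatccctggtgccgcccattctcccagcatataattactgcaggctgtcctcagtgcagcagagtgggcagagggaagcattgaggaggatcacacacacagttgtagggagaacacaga

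Cyp2b10: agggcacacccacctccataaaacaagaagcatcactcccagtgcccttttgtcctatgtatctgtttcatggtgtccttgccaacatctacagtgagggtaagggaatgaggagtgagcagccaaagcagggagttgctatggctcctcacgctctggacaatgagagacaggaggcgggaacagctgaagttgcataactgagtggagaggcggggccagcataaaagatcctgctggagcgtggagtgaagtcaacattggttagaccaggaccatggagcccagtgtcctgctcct

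Cyp2c65: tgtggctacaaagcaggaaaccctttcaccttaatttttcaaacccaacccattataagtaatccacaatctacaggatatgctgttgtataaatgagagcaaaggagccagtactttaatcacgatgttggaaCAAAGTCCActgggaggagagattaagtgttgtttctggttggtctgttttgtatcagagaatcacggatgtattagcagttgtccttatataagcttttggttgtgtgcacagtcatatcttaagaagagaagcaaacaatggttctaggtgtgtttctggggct

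Cyp2c55: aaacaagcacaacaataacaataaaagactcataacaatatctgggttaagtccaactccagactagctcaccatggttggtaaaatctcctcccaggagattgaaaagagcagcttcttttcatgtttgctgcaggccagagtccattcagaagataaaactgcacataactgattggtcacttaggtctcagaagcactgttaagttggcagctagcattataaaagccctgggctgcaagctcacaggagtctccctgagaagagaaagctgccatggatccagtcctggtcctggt

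Counted from the gene's start, CAAAGTCCA began at -109 in Cyp3a11 and at -116 in Cyp2c65, and AGGTCA began at -162 in Cyp3a11. Neither sequence was in the Cyp2b10 and Cyp2c55 windows as printed. CAAAGTCCA was in 10 of the 74 members' windows (13.5%), against 156 of 32851 windows in all (0.475%), members being counted by gene. The 10 were Cyp2c40, Cyp2c65, Cyp2c67, Cyp2c68, Cyp2c69, Cyp2c70, Cyp3a11, Cyp3a16, Cyp3a41b and Cyp8b1. Most of them belong to the Cyp2c and Cyp3a clusters, whose members arose by duplication and share sequence, so they are not independent. AGGTCA was in the windows of 21 of the 74 members (28.4%), against 16.3% of all windows. TATAAA, the TATA box, was searched in the same way and found for 31 of the 74 (41.9%), against 13.6% of all windows. Of the members with a window, CAAAGTCCA was found for 2 of the 16 called higher in jejunum than in colon and 0 of the 8 called lower, AGGTCA for 5 of 16 and 1 of 8, and TATAAA for 6 of 16 and 4 of 8. A match is a description of the sequence and not a binding site, and the sequences were chosen with the regional results known.

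Members of the family differed widely in level. In the 8 libraries other than VSG stomach and sham duodenum, 37 members reached 10 RPKM and 13 reached 100 RPKM in at least 1 library, while 41 stayed under 1 RPKM in all 8. Cyp19a1, the oestrogen synthase, and Cyp4a29 had no read in any of the 10 libraries. The summed level of the 101 members was 2431 RPKM in VSG jejunum and 3336 RPKM in sham jejunum. It was 1729 RPKM in VSG ileum and 1950 RPKM in sham ileum, and 1539 RPKM in VSG colon and 1289 RPKM in sham colon. VSG duodenum, at 2899 RPKM, lay between the 2 jejunum libraries, and sham stomach, at 447 RPKM, was the lowest of the 8. As a share of all RPKM the family held 0.564% in VSG jejunum and 0.699% in sham jejunum, against 0.395% in VSG colon and 0.341% in sham colon. These are bulk tissues, in which fewer cells of a type and less RNA per cell cannot be told apart.

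**Figure D1:**
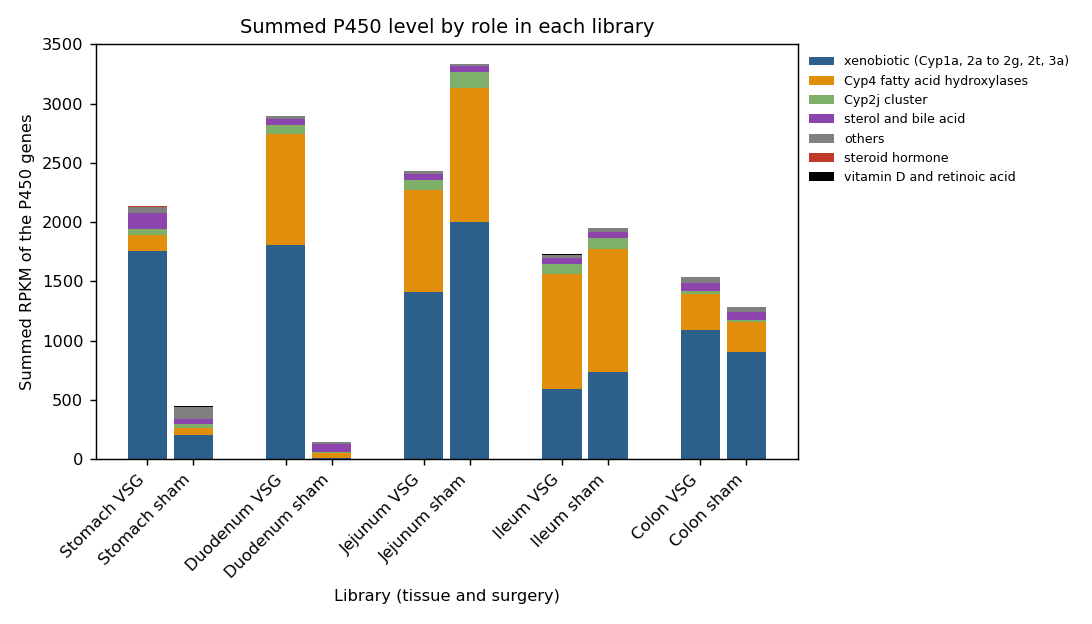
Summed RPKM of the 101 P450 genes in each of the 10 libraries (y axis, linear from 0), stacked by role, with the VSG library left of the sham library of each tissue. Sham jejunum has the highest bar at 3336 RPKM, and in both ileum libraries the Cyp4 genes make up more of the bar than the xenobiotic genes.

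The composition of the sum changed along the gut. Genes of xenobiotic metabolism summed to 1409 RPKM in VSG jejunum and 2001 RPKM in sham jejunum, to 593 and 738 RPKM in VSG and sham ileum, and to 1089 and 907 RPKM in VSG and sham colon. The 22 Cyp4 genes took a different course, with 864 and 1127 RPKM in VSG and sham jejunum, 971 and 1038 RPKM in VSG and sham ileum, and 305 and 250 RPKM in VSG and sham colon. The ileum thus held more Cyp4 than xenobiotic P450 RNA per length, and jejunum and colon the reverse. A few genes carried most of each sum: the 5 highest held between 51.2% (sham colon) and 65.0% (sham stomach) of the family's RPKM. In both jejunum libraries these were Cyp2d26, Cyp4f14, Cyp3a13, Cyp4v3 and Cyp3a25 in that order. In both colon libraries Cyp2c55 led, followed by Cyp2d34 and Cyp2c65. The heat map of the 37 most expressed members shows these blocks.

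**Figure D2:**
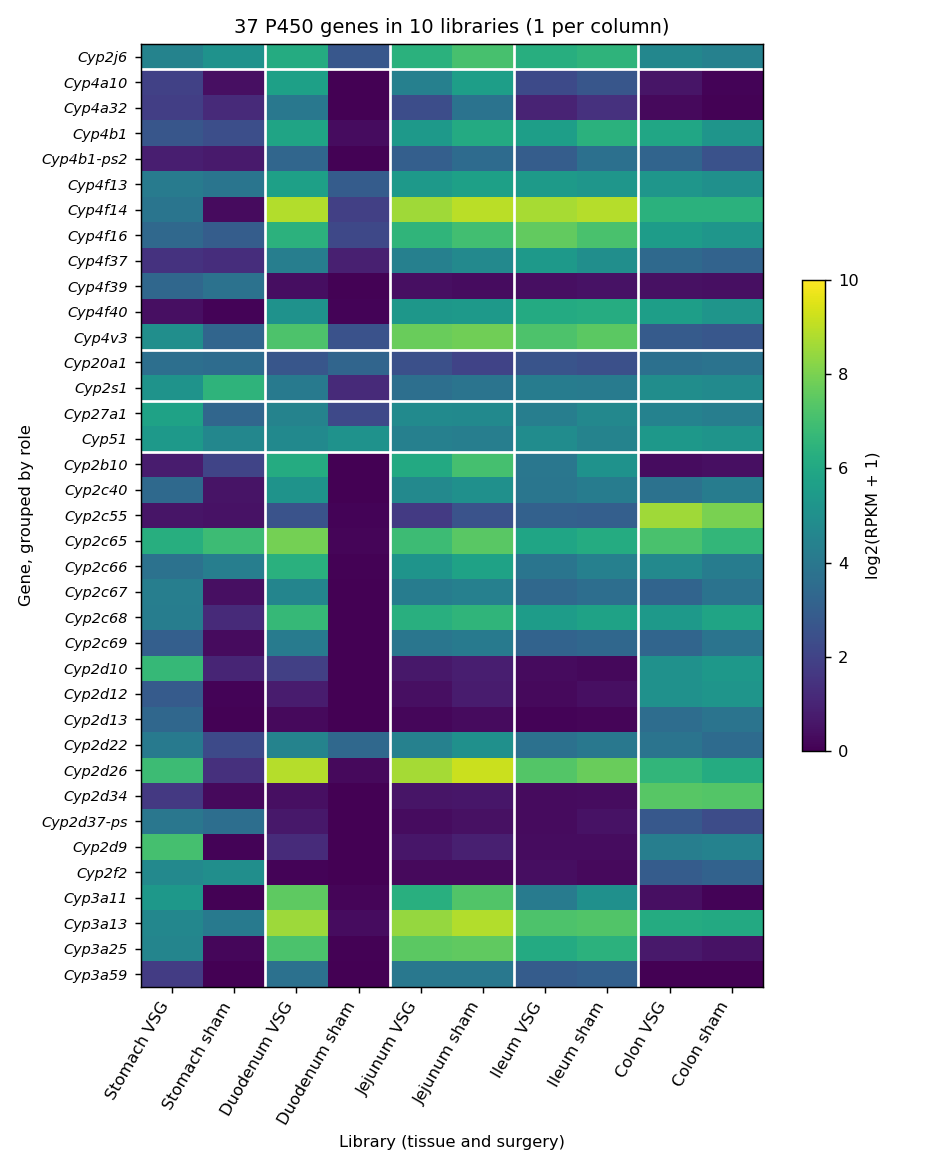
Level of the 37 P450 genes that reached 10 RPKM in any of the 8 libraries other than VSG stomach and sham duodenum (rows, grouped by role), in 10 libraries (columns, VSG left of sham), on a log2(RPKM + 1) colour scale. Cyp3a11, Cyp3a25, Cyp3a59 and Cyp2b10 are brighter in VSG duodenum, jejunum and ileum than in colon, where they are dark. Cyp2c55, Cyp2d34, Cyp2d10 and Cyp2d12 are brighter in colon than in jejunum and ileum.

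Regional differences were tested with limma on log2(RPKM + 1) in the 6 libraries of jejunum, ileum and colon, with surgery as an additive term, over the 12608 genes whose mean reached 1 RPKM. A gene was called at an adjusted p (Benjamini-Hochberg) under 0.05 and at least 2-fold. Of the 101 members 50 passed the filter on low values. Just inside it were Cyp2b13 (1.44 RPKM), Cyp4a31 (1.56 RPKM) and Cyp2d40 (1.60 RPKM), and just outside it Cyp7b1 (0.962 RPKM), Cyp2r1 (0.958 RPKM) and Cyp26b1 (0.779 RPKM). Of the 50, 14 passed only through the tissue where they were high, the mean of the other 4 libraries being under 1 RPKM, so their regional difference was in part set by the filter. Through jejunum these were Cyp2b13, Cyp2c23, Cyp3a41b, Cyp4a31 and Cyp4a32, and through colon Cyp2d9, Cyp2d10, Cyp2d11, Cyp2d12, Cyp2d13, Cyp2d34, Cyp2d37-ps, Cyp2f2 and Cyp2w1. Between jejunum and colon 34 of the 50 were called, 21 higher and 13 lower in jejunum, where 24.4% of all genes tested were called, 7.06% higher and 17.4% lower. Between ileum and colon 26 were called, 14 higher and 12 lower in ileum, against 14.5% of all genes, 5.38% higher and 9.13% lower. Between jejunum and ileum 16 were called, 15 higher and 1 lower in jejunum, against 5.62% of all genes, 2.64% higher and 2.97% lower. The median difference between jejunum and colon was 0.68 on the log2 scale over the 50 members and -0.39 over all genes tested. Median-ratio scaling of the libraries brought the median of all genes to -0.0008 and their calls to 1393 higher and 1232 lower in jejunum, against 890 and 2189 on the authors' scaling, and then 25 members were called higher and 12 lower.

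In both libraries of each tissue, 16 of the 50 members stood in the order jejunum, then ileum, then colon from high to low, an order that 8.03% of all genes tested kept. The reverse order was kept by 5 members, Cyp2c55, Cyp2s1, Cyp2w1, Cyp39a1 and Cyp51, and by 37.3% of all genes tested. The plot of the difference between jejunum and colon shows both ends of the family.

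**Figure D3:**
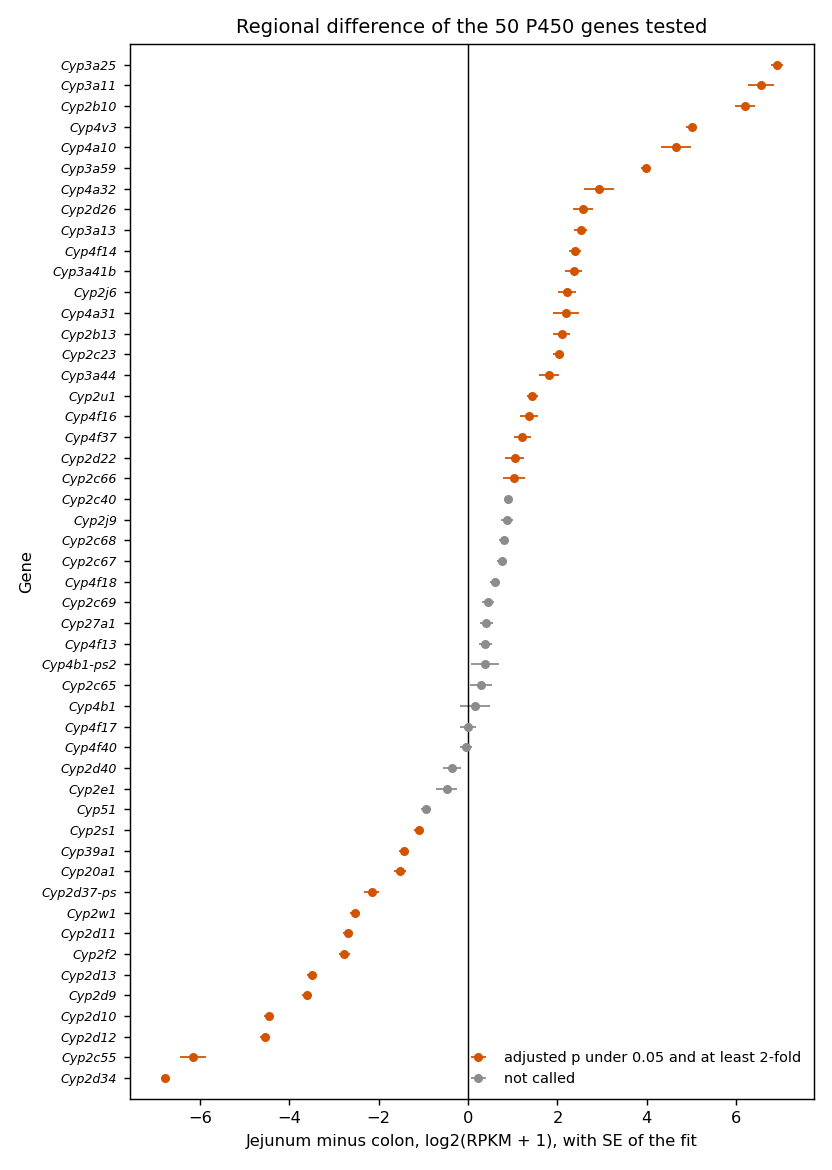
Jejunum minus colon difference of the 50 P450 genes tested (x axis, log2(RPKM + 1), bars show the SE of the limma fit over 6 libraries), sorted by size, with called genes in orange. Cyp3a25 is at the top with 6.92 and Cyp2d34 at the bottom with -6.79.

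Of the Cyp3a genes, the main drug-metabolizing subfamily of gut and liver, all 6 tested were called higher in jejunum than in ileum. All 6 were called higher in jejunum than in colon as well. Of all genes tested, 2.64% were called higher in jejunum than in ileum and 7.06% higher than in colon. Cyp3a41b was among the members that passed the filter only through jejunum. Cyp3a11, the best studied mouse relative of human CYP3A4, measured 79.3 RPKM in VSG jejunum and 156 RPKM in sham jejunum, 16.9 and 31.5 RPKM in VSG and sham ileum, and 0.338 and 0.0681 RPKM in VSG and sham colon. No library of one tissue overlapped the next. It was 6.55 ± 0.29 higher on the log2 scale in jejunum than in colon (SE, limma adjusted p = 2.6e-06) and 2.22 ± 0.29 higher in jejunum than in ileum (limma adjusted p = 0.002). Cyp3a25 had 176 and 190 RPKM in VSG and sham jejunum, 67.3 and 84.9 RPKM in VSG and sham ileum, and 0.613 and 0.419 RPKM in VSG and sham colon. Its difference between jejunum and colon, 6.92 ± 0.13, was the largest of the 50. Cyp3a13 differed from these in keeping a level in colon: it had 340 and 460 RPKM in VSG and sham jejunum, 148 and 154 RPKM in VSG and sham ileum, and 71.1 and 65.5 RPKM in VSG and sham colon. Cyp3a59, a close copy of Cyp3a25, had 15.1 and 14.8 RPKM in VSG and sham jejunum but 0.0267 RPKM in VSG colon and 0 in sham colon. Its excess in jejunum over ileum (1.01 ± 0.10) went under 2-fold without VSG ileum (0.90) or VSG jejunum (0.96).

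Transcripts of such copies are hard to count apart. By blastn over GENCODE vM21 transcripts, Cyp3a25 and Cyp3a59 shared 97.0% of 1991 aligned bases, and Cyp3a11 and Cyp3a41b 94.6% of 2033. Of the 50 members tested, 38 had another P450 transcript aligned over most of its length, and for 21 it was at least 90% identical. How the authors' counting split reads between such copies is not given in the sources used here, so values of single members of a cluster are less certain than their sum.

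Cyp2b10, an enzyme of drug and steroid oxidation and the marker gene of CAR activity, followed the same slope. It measured 67.2 RPKM in VSG jejunum and 132 RPKM in sham jejunum, 14.7 and 33.4 RPKM in VSG and sham ileum, and 0.253 and 0.343 RPKM in VSG and sham colon. The 3 tissues did not overlap, and jejunum exceeded colon by 6.20 ± 0.23 on the log2 scale (limma adjusted p = 1.3e-06). Its neighbour Cyp2b13 had 2.33 and 4.47 RPKM in VSG and sham jejunum and was at 0 in both colon libraries.

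The Cyp2d cluster split in the opposite way. Of 10 Cyp2d genes tested, 7 were called lower in jejunum than in colon and 2 higher, and those 7 had passed the filter only through colon. Of all genes tested, 17.4% were called lower and 7.06% higher in jejunum than in colon. Cyp2d26 had the highest level of any P450 in jejunum, with 399 RPKM in VSG and 589 RPKM in sham, against 161 and 212 RPKM in VSG and sham ileum and 93.7 and 70.5 RPKM in VSG and sham colon. Cyp2d34 was almost a colon gene: it had 0.476 and 0.507 RPKM in VSG and sham jejunum, 0.221 and 0.259 RPKM in VSG and sham ileum, and 168 and 160 RPKM in VSG and sham colon. That difference between jejunum and colon, -6.79 ± 0.09, was the lowest of the family (limma adjusted p = 1.2e-07). Cyp2d10, Cyp2d12, Cyp2d9 and the transcribed pseudogene Cyp2d13 lay under 1 RPKM in all 4 libraries of jejunum and ileum. In VSG and sham colon Cyp2d10 had 32.4 and 39.7 RPKM, Cyp2d12 32.6 and 36.2 RPKM, Cyp2d9 18.6 and 20.6 RPKM, and Cyp2d13 10.8 and 13.4 RPKM. These genes sit side by side on chromosome 15, and Cyp2d10 and Cyp2d11 shared 94.4% of 1584 aligned bases.

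The Cyp2c genes, epoxygenases of arachidonic acid and of drugs, differed among themselves in regional pattern. Cyp2c55, the highest P450 of the colon, had 2.24 and 4.86 RPKM in VSG and sham jejunum, 7.59 and 7.16 RPKM in VSG and sham ileum, and 381 and 250 RPKM in VSG and sham colon. Jejunum was lower than colon by -6.15 ± 0.30 on the log2 scale (limma adjusted p = 3.9e-06). Its neighbour Cyp2c65 was high at both ends: it had 114 and 174 RPKM in VSG and sham jejunum, 58.3 and 70.0 RPKM in VSG and sham ileum, 139 and 96.3 RPKM in VSG and sham colon, and also 114 RPKM in sham stomach. Jejunum and colon overlapped for Cyp2c65 (0.28 ± 0.24, limma adjusted p = 0.32), while jejunum exceeded ileum by 1.13 ± 0.24 (adjusted p = 0.013). That last call was lost without sham jejunum, at 0.76 and a limma adjusted p of 0.0762. Cyp2c68, with 79.0 and 91.4 RPKM in VSG and sham jejunum, 45.3 and 53.1 RPKM in VSG and sham ileum and 41.8 and 56.2 RPKM in VSG and sham colon, varied by less than 2-fold between regions. Cyp2c40, Cyp2c67 and Cyp2c69, which are close copies of it, did so too at lower levels: none of the 4 was called in any regional comparison, all differences being under 2-fold.

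**Figure D4:**
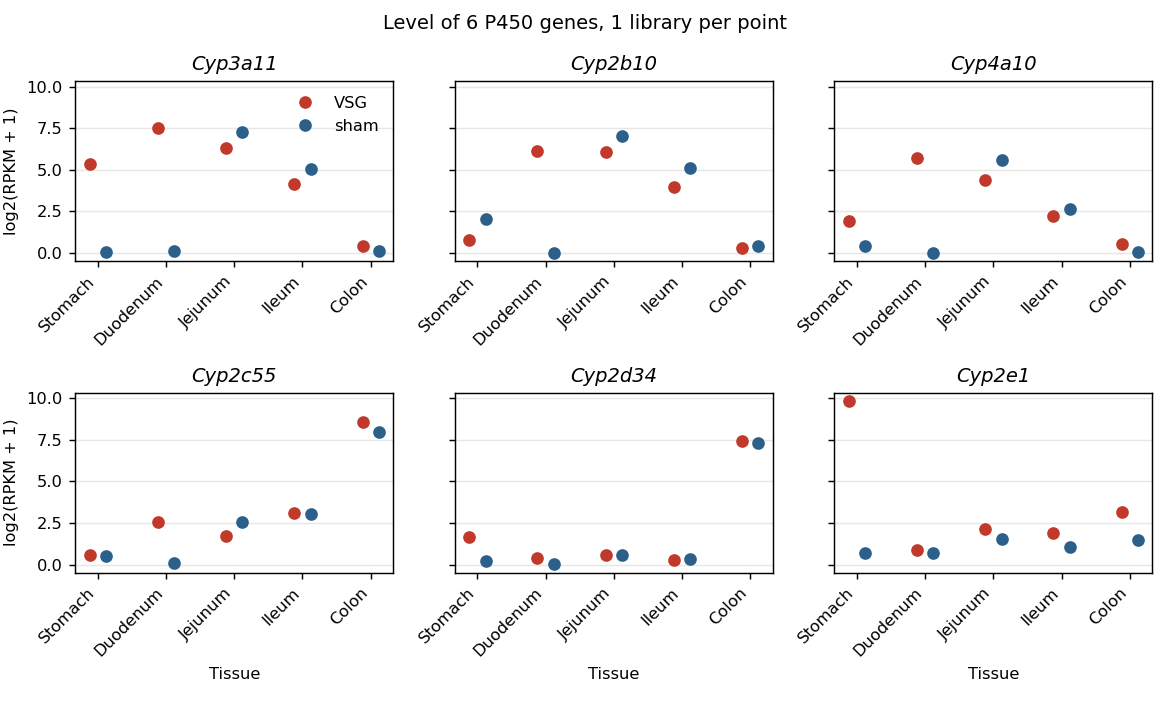
Level of 6 P450 genes in every library (y axis, log2(RPKM + 1)), with 1 point per library and VSG (red) left of sham (blue) in each tissue from stomach to colon. Cyp3a11, Cyp2b10 and Cyp4a10 step down from jejunum to colon, Cyp2c55 and Cyp2d34 are highest in colon, and Cyp2e1 reaches 915 RPKM in VSG stomach.

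Among the Cyp4 genes, which hydroxylate fatty acids at or near the chain's end, no tested member was called higher in colon. The 3 Cyp4a genes tested, classical PPAR alpha targets, were higher in jejunum than in ileum and colon. All 3 had a higher value in VSG duodenum than in either jejunum library, with 50.6 RPKM there for Cyp4a10. Cyp4a10 had 19.6 RPKM in VSG and 47.1 RPKM in sham jejunum, and 3.71 and 5.34 RPKM in VSG and sham ileum. In VSG and sham colon it had 0.489 and 0.0574 RPKM. Its difference between jejunum and colon was 4.65 ± 0.34 on the log2 scale (limma adjusted p = 2.6e-05). Cyp4a32 and Cyp4a31 were called higher in jejunum than in ileum and colon as well, both among the members that passed the filter only through jejunum. Their transcripts and that of Cyp4a10 are near copies, with 97.2% identity between Cyp4a10 and Cyp4a32 and 96.0% between Cyp4a31 and Cyp4a32 over 1530 bases. Without sham jejunum, Cyp4a31 was no longer called against ileum (0.99, limma adjusted p = 0.0107), because its difference was then under 2-fold. Cyp4a32 was called higher in ileum than in colon by 1.04 ± 0.33, and lost that call without sham colon (0.47) and also without VSG ileum (0.94).

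Cyp4f14, a leukotriene hydroxylase, was level over the small intestine, at 381 and 501 RPKM in VSG and sham jejunum and 408 and 469 RPKM in VSG and sham ileum, against 82.6 and 83.0 RPKM in VSG and sham colon. Jejunum and ileum overlapped, and ileum exceeded colon by 2.39 ± 0.13 (limma adjusted p = 1.3e-05). Cyp4f16 was highest in ileum, with 91.5 and 124 RPKM in VSG and sham jejunum, 195 and 139 RPKM in VSG and sham ileum, and 44.8 and 37.2 RPKM in VSG and sham colon. Both ileum libraries lay above both jejunum libraries, although that difference was not called (-0.62 ± 0.21 for jejunum against ileum, limma adjusted p = 0.057). Without sham jejunum, the excess of Cyp4f16 in jejunum over colon went under 2-fold (0.96). Cyp4v3, the mouse counterpart of the gene behind Bietti corneoretinal dystrophy, had 212 and 230 RPKM in VSG and sham jejunum, 146 and 180 RPKM in VSG and sham ileum, and 6.25 and 5.55 RPKM in VSG and sham colon, a difference of 5.01 ± 0.13 between jejunum and colon (limma adjusted p = 3.3e-07). Cyp4b1 had no regional call: it had 39.9 and 68.3 RPKM in VSG and sham jejunum, 48.3 and 82.8 RPKM in VSG and sham ileum, and 60.3 and 36.1 RPKM in VSG and sham colon.

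Among the 9 tested members with other roles, 6 were called between jejunum and colon, 2 higher and 4 lower in jejunum. In that comparison 7.06% of all genes were called higher and 17.4% lower. Of the 4 lower, Cyp2w1 had passed the filter only through colon. Cyp2j6, an arachidonic acid epoxygenase, had 82.3 and 135 RPKM in VSG and sham jejunum, 76.6 and 88.9 RPKM in VSG and sham ileum, and 24.0 and 19.9 RPKM in VSG and sham colon, and was the only gene of the 7 in its cluster to reach 10 RPKM in any of the 8 libraries. Of the sterol and bile acid genes, Cyp27a1, which oxidizes the sterol side chain, stayed between 18.1 and 26.3 RPKM in the 6 libraries. Cyp51, the lanosterol demethylase of cholesterol synthesis, stayed between 18.1 and 39.2 RPKM. Cyp39a1, an oxysterol hydroxylase, had 2.55 and 2.12 RPKM in VSG and sham jejunum, 3.55 and 2.62 RPKM in VSG and sham ileum, and 8.20 and 7.92 RPKM in VSG and sham colon, and was called lower in jejunum than in colon (-1.44 ± 0.11, limma adjusted p = 2.8e-05). Cyp20a1, whose substrate is not known, had 4.47 and 2.99 RPKM in VSG and sham jejunum, 5.08 and 4.44 RPKM in VSG and sham ileum, and 11.9 and 13.0 RPKM in VSG and sham colon. It too was called lower in jejunum than in colon (-1.52 ± 0.14, limma adjusted p = 8.1e-05). Cyp2u1, a fatty acid hydroxylase, went the other way, with 3.85 and 2.96 RPKM in VSG and sham jejunum, 6.82 and 7.54 RPKM in VSG and sham ileum, and 0.632 and 0.611 RPKM in VSG and sham colon (1.44 ± 0.12, limma adjusted p = 6.1e-05). Cyp7a1 and Cyp8b1, the liver enzymes of bile acid synthesis, did not reach 1 RPKM in any of the 8 libraries. Cyp2s1, an epithelial P450 found mainly outside the liver, had 11.4 and 13.2 RPKM in VSG and sham jejunum and 28.7 and 26.6 RPKM in VSG and sham colon, and was highest in sham stomach at 89.4 RPKM. Its lower level in jejunum than in colon (-1.11 ± 0.11, limma adjusted p = 9.5e-05) went under 2-fold with another scaling of the libraries (-0.67) and without VSG jejunum (-0.98). Cyp2w1, known from fetal colon and colon tumours, was at 0.106 and 0.181 RPKM in VSG and sham jejunum, at 1.36 and 1.56 RPKM in VSG and sham ileum, and at 5.86 and 5.42 RPKM in VSG and sham colon. It was the 1 member called lower in jejunum than in ileum (-1.10 ± 0.11, limma adjusted p = 0.00082). None of the 6 steroid hormone genes and none of the 6 vitamin D and retinoic acid genes passed the filter on low values.

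The partners of the P450s were taken from a list of genes of electron transfer, haem synthesis and breakdown, nuclear receptors and epoxide hydrolysis, of which 28 passed the filter. Between jejunum and colon 8 of the 28 were called higher and 2 lower in jejunum, where 7.06% of all genes were called higher and 17.4% lower. Por, the reductase that feeds electrons to all microsomal P450s, had 161 and 230 RPKM in VSG and sham jejunum, 107 and 109 RPKM in VSG and sham ileum, and 74.7 and 62.9 RPKM in VSG and sham colon. CAR (Nr1i3) had 19.0 and 26.2 RPKM in VSG and sham jejunum, 4.15 and 8.15 RPKM in VSG and sham ileum, and 1.07 and 1.15 RPKM in VSG and sham colon, so that jejunum exceeded colon by 3.47 ± 0.17. PXR (Nr1i2), at 48.0 and 61.1 RPKM in VSG and sham jejunum and 31.7 and 25.4 RPKM in VSG and sham colon, was not called (0.91 ± 0.15), and Ppara lay between 10.5 and 15.2 RPKM in all 6 libraries. Ephx2, the soluble epoxide hydrolase that acts on the epoxides made by Cyp2c and Cyp2j enzymes, had the largest difference of the list (4.67 ± 0.14), with 357 and 468 RPKM in VSG and sham jejunum and 15.8 and 14.3 RPKM in VSG and sham colon. The other 5 called higher were Cyb5r3, Cyb5b, Cyb5a, Pgrmc1 and Nr1h3, and the 2 called lower were Nr1h4 and Ptgis.

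The effect of surgery on the family was asked next. Over jejunum, ileum and colon together, with tissue as a block, limma called none of the 50 members at an adjusted p under 0.05, and 2 of 12608 genes in all (0.0159%). At an unadjusted p under 0.05 there were 9 members and 809 genes. Cyp2e1, an ethanol- and ketone-oxidizing enzyme, had the largest difference of the 50, 1.00 ± 0.20 higher after VSG on the log2 scale (limma adjusted p = 0.51), and it was higher in all 3 tissues. Cyp2b10 had the lowest, at -0.73 ± 0.19 (limma adjusted p = 0.61), and was lower in all 3. Cyp3a11 was at -0.50 ± 0.23 (limma adjusted p = 0.83). The outcome depended on which tissue was left out. Without either jejunum library no member was called, and the median of the 50 was -0.02, against -0.14 with no library left out. Without either colon library, which leaves the surgery contrast to jejunum and ileum alone, 3 members were called lower after VSG, while the calls over all genes came to 51 (0.405%) without VSG colon and 49 (0.389%) without sham colon. These were Cyp2b10 at -1.05 (limma adjusted p = 0.00526 without VSG colon and 0.00552 without sham colon), Cyp3a11 at -0.91 (0.00898 and 0.00993) and Cyp4b1 at -0.76 (0.0294 and 0.0309). Without either ileum library, when 106 genes in all were called (0.841%), Cyp2e1 was called higher, at 1.10 (limma adjusted p = 9.19e-05 without VSG ileum and 8.64e-05 without sham ileum).

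Within a tissue each surgery has 1 library, so the values below have no replicate check, and their 95% intervals (exact, Clopper-Pearson) cover counting error only. In jejunum most P450s had lower values after VSG. Of 46 members with a mean of at least 1 RPKM, 37 were below 0 and 9 above, with a median of -0.42 on the log2 scale, against a median of -0.02 over all 11674 genes, of which 53.0% were below 0. Past 2-fold on the log2(RPKM + 1) scale were 3 members, all lower, where 1.06% of all genes were past it, 0.762% higher and 0.3% lower. The 3 were the Cyp4a genes: Cyp4a10 had 19.6 RPKM in VSG and 47.1 RPKM in sham jejunum, a ratio of 0.416 (95% interval 0.396 to 0.438). Cyp4a32 had 4.16 and 13.1 RPKM, a ratio of 0.319 (0.279 to 0.363), and Cyp4a31 had 2.16 and 6.04 RPKM, a ratio of 0.357 (0.304 to 0.419). Since these 3 share nearly all of their sequence, they are not 3 independent observations. Cyp3a11 and Cyp2b10 came next on that scale, just inside 2-fold: the ratio was 0.508 (0.493 to 0.524) for Cyp3a11 and 0.509 (0.492 to 0.527) for Cyp2b10.

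The lower values in VSG jejunum were uneven between subfamilies. All 9 Cyp2c genes kept, all 3 Cyp2d genes and 7 of 8 Cyp3a genes were below 0. Cyp3a25 had 176 RPKM in VSG and 190 RPKM in sham jejunum, a ratio of 0.927 (0.905 to 0.9485), and its close copy Cyp3a59 had 15.1 and 14.8 RPKM, a ratio of 1.02 (0.9375 to 1.105). Cyp4v3 had 212 and 230 RPKM, a ratio of 0.922 (0.906 to 0.938). These 3 thus lay close to their sham level in the library in which Cyp3a11 had a ratio of 0.508. Of the sterol and bile acid genes, none of the 3 kept was below 0. In the same libraries the 12 enterocyte markers summed to 18240 RPKM in VSG and 25160 RPKM in sham jejunum. Most of that sum was Fabp2 (6859 and 9898 RPKM) and Rbp2 (5669 and 8503 RPKM). The median of the 12 was 803 RPKM in VSG and 944 RPKM in sham jejunum. Among the other markers, Alpi had 803.9 and 1585 RPKM, Lct 334.8 and 398.5 RPKM and Vil1 802.2 and 893.1 RPKM. Sis (989.8 and 995.3 RPKM) and Slc5a1 (1109 and 1101 RPKM) were nearly level. Slc5a1 was the only marker of the list with a higher value in VSG jejunum. The 8 pancreatic acinar markers summed to 250.6 RPKM in VSG and 2.26 RPKM in sham jejunum. Of 28 partner genes kept, 23 were below 0, with a median of -0.25. The part of these in the P450 values was not tested.

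**Figure D5:**
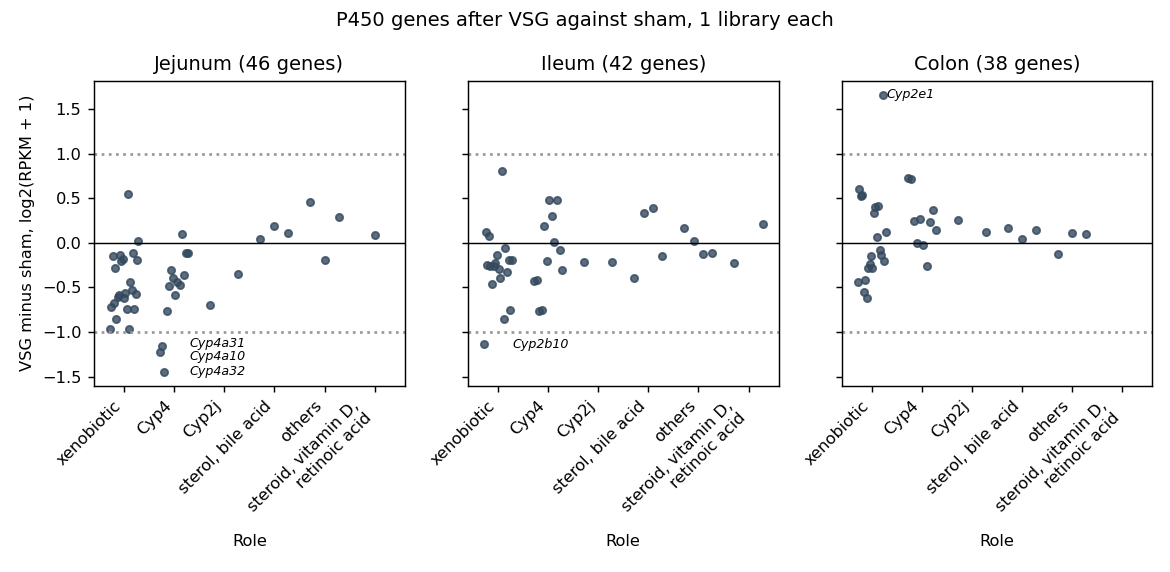
VSG minus sham difference on the log2(RPKM + 1) scale of the P450 genes whose mean of the 2 libraries reached 1 RPKM in jejunum (46), ileum (42) and colon (38), by role, with 1 point per gene from 1 library of each surgery and dotted lines at 2-fold. In jejunum 37 of 46 points lie below 0, and the labelled genes are those past 2-fold.

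In ileum the differences were smaller. Of 42 members kept, 29 were below 0, as were 48.2% of all genes, with a median of -0.20 against 0.01 over all genes. Past 2-fold was 1 member, where 0.271% of all genes were past it, 0.148% higher and 0.123% lower. That gene was Cyp2b10, with 14.7 RPKM in VSG and 33.4 RPKM in sham ileum, a ratio of 0.438 (0.409 to 0.470). Cyp3a11 had the next largest difference, with 16.9 and 31.5 RPKM and a ratio of 0.537 (0.503 to 0.572). Cyp4b1 had 48.3 and 82.8 RPKM, a ratio of 0.583 (0.561 to 0.605). The reverse was seen for Cyp4f16, with 195 and 139 RPKM and a ratio of 1.40 (1.37 to 1.43), and for Cyp2e1, with 2.70 and 1.13 RPKM and a ratio of 2.39 (1.86 to 3.09). Here the enterocyte markers summed to 18830 RPKM in VSG and 20200 RPKM in sham ileum. Of 38 members kept in both jejunum and ileum, 23 were below 0 in both (60.5%), as were 29.4% of all genes kept in both.

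In colon 23 of 38 members were above 0 and 15 below, with a median of 0.11, against -0.001 over all genes, of which 50.4% were below 0. The 20 xenobiotic genes kept had 9 above and 11 below 0 and a median of -0.11, and the 10 Cyp4 genes 7 above and 3 below and a median of 0.24. Past 2-fold was Cyp2e1 alone, higher after VSG, where 0.478% of all genes were past it, 0.432% higher and 0.0463% lower. It had 7.91 RPKM in VSG and 1.82 RPKM in sham colon, a ratio of 4.33 (3.58 to 5.27). The 5 adipocyte markers, genes of fat cells, in which Cyp2e1 is also found, summed to 123 RPKM in VSG and 71.8 RPKM in sham colon, to 80.3 and 63.7 RPKM in VSG and sham ileum and to 56.9 and 30.3 RPKM in VSG and sham jejunum. The 15 liver markers summed to 54.5 RPKM in VSG and 46.8 RPKM in sham colon. They summed to 12.3 and 12.4 RPKM in VSG and sham ileum and to 27.3 and 17.9 RPKM in VSG and sham jejunum. Most of these markers were higher in the VSG library in jejunum and colon, while in ileum their directions were mixed. At 1 RPKM or more were 10 in VSG and 4 in sham jejunum, and 7 and 5 in VSG and sham colon. In VSG and sham colon Alb had 2.81 and 1.14 RPKM and Hpx 1.985 and 0.5822 RPKM. Lower in VSG colon were only Ttr (13.73 and 15.13 RPKM), F2, Rbp4 and Hamp. In VSG and sham jejunum Alb had 4.432 and 0.9275 RPKM, Hpx 3.923 and 0.2358 RPKM and Fgb 1.558 and 0.0317 RPKM. Lower in VSG jejunum were only Ttr, Apoa2 (3.425 and 6.269 RPKM) and Ambp. The 8 pancreatic acinar markers summed to 460 RPKM in VSG and 2.63 RPKM in sham colon. The part of these in Cyp2e1 was not tested. The leading colon gene Cyp2c55 had 381 and 250 RPKM, a ratio of 1.53 (1.499 to 1.553), Cyp4b1 60.3 and 36.1 RPKM, a ratio of 1.67 (1.60 to 1.75), and Cyp2c65 139 and 96.3 RPKM, a ratio of 1.44 (1.40 to 1.48). Cyp2d34, by contrast, had 168 and 160 RPKM, a ratio of 1.05 (1.02 to 1.07), and Cyp2c68 had 41.8 and 56.2 RPKM, a ratio of 0.743 (0.709 to 0.778). Of 28 members kept in all 3 tissues, 11 were below 0 in jejunum and ileum and above 0 in colon (39.3%, against 16.3% of all genes kept in the 3), and 5 were below 0 in all 3 (17.9%, against 12.9%).

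In VSG duodenum Cyp3a11 had 181 RPKM, Cyp2b10 70.2 RPKM and Cyp4a10 50.6 RPKM, against 79.3, 67.2 and 19.6 RPKM in VSG jejunum in the same order. Its leading genes were Cyp2d26 (469 RPKM), Cyp4f14 (457 RPKM) and Cyp3a13 (368 RPKM), the same 3 as in jejunum. VSG duodenum also held 2061 RPKM over the 8 stomach markers and 2850 RPKM over the 8 pancreatic acinar markers. The part of this RNA in its P450 values was not tested. The library labelled sham duodenum gives no sham value for these genes, since enterocyte markers were near absent from it. There 41 of 47 members kept were past 2-fold, 37 higher and 4 lower in VSG duodenum, where 55.4% of all genes were past it, 27.5% higher and 27.9% lower. Those 4 were Cyp46a1, Cyp4x1, Cyp2j9 and Cyp7b1. Cyp46a1, the cholesterol hydroxylase of neurons, had 0.264 RPKM in VSG duodenum and 26.2 RPKM in the library labelled sham duodenum, and Cyp4x1, a P450 of brain, 0.0223 and 6.96 RPKM. Cyp2j9, also known from brain, had 2.07 and 9.31 RPKM, Cyp7b1, an oxysterol hydroxylase, 0.729 and 4.33 RPKM, and Cyp4f15, which stayed within 2-fold, 2.87 and 5.08 RPKM. These values stand beside 15 neural markers summing to 20.8 RPKM in VSG duodenum and 2328 RPKM in the library labelled sham duodenum.

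The 5 genes that led sham stomach were Cyp2c65, Cyp2s1, Cyp2j6, Cyp2f2, an enzyme best known for naphthalene oxidation in lung, and Cyp51. Cyp2c65 had 75.5 RPKM in VSG and 114 RPKM in sham stomach, Cyp2s1 33.8 and 89.4 RPKM, Cyp2j6 21.4 and 33.6 RPKM, and Cyp2f2 24.9 and 29.7 RPKM, all lower in the VSG library. Cyp51 was higher in it, with 40.4 RPKM in VSG and 24.1 RPKM in sham stomach, a ratio of 1.68 (1.63 to 1.73). Cyp4f39, a fatty acid hydroxylase of skin barrier lipids, had 9.05 RPKM in VSG and 12.6 RPKM in sham stomach and no more than 0.413 RPKM outside the stomach. Past 2-fold in VSG against sham stomach were 42 of 62 members higher and 2 lower, where 16.9% of all genes were past it, 12.9% higher and 3.95% lower. The 2 lower were Cyp2s1, at a ratio of 0.378 (0.369 to 0.386), and Cyp2b10, with 0.694 and 3.16 RPKM and a ratio of 0.219 (0.165 to 0.287).

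Many of the members higher in VSG stomach are best known from liver. Cyp2e1 had 915 RPKM in VSG and 0.647 RPKM in sham stomach, Cyp2d9 131 and 0.0618 RPKM, Cyp2d26 114 and 1.64 RPKM, and Cyp2d10 103 and 1.08 RPKM. Cyp2c70, which makes the muricholic acids of mouse bile, had 38.5 and 0.0597 RPKM, Cyp3a11 39.5 and 0.0373 RPKM, and Cyp2j5 27.5 and 0.0245 RPKM. Cyp2a12 had 29.8 RPKM in VSG stomach and no read in sham stomach. Of the 41 members that stayed under 1 RPKM in the 8 libraries, 17 reached it in VSG stomach, among them Cyp7a1, the first enzyme of bile acid synthesis, at 10.9 RPKM against 0 in sham stomach, and Cyp8b1 at 14.0 RPKM against 0.491 RPKM. All 15 liver markers were at 1 RPKM or more in that library, and what part of these P450 values belongs to stomach tissue was not tested.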

How the data were processed

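RNA sequencing libraries of 5 gut tissues after VSG or sham surgery were compared, 1 library for each of 10 groups taken from the sample titles. GSNAP, Cufflinks and mm10 are named in the submitters' processing notes, without versions. A single table of RPKM values was deposited, scaled so that each tissue pair's implied depths deviate from the recovered reads in opposite ways (recovered over implied 1.16 in VSG and 0.859 in sham duodenum, and between 0.961 and 1.04 elsewhere). Over 18187 rows (27 to 18213) the 8 intestinal columns stood 1 row too low and were moved back; of 1000 sampled genes, 8.1% gave whole reads as deposited and 100% after the move, within 0.001 reads. Symbols came from RefSeq for 23008 of 23079 identifiers. Whole reads were recovered from value steps and served for the check of the move, the read totals of the libraries and the counting intervals. The 15 genes without whole reads were left out of the fits.

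Fits used limma 3.58.1 (R 4.3.3) on log2(RPKM + 1), with tissue and surgery as terms and a trend in the variance; p-values were adjusted by Benjamini-Hochberg over the genes whose mean over 6 libraries reached 1 RPKM. There were 2 residual degrees of freedom. Within a tissue, differences are log2((VSG RPKM + 1)/(sham RPKM + 1)), without a test; the pseudocount of 1 understates changes of low genes. The limma step was tested on simulated data. Identity was computed with blastn 2.17.0. Values of different tissues are compared on the authors' scaling. Named members are Cyp3a11, Cyp2b10 and Cyp4a10, the 15 highest, the 6 largest called differences in each direction of each contrast, those past 2-fold in jejunum, ileum or colon, and those farthest apart in stomach (8) and duodenum (5); others were named after their values were seen. The members, gene lists and tests were chosen with earlier results of these data known.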

Additional observations from a re-analysis of the deposited data

Results flagged for a closer look

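Some members moved in opposite directions after VSG in different tissues, by at least 0.5 on the log2(RPKM + 1) scale each way. Each value compares 1 VSG library with 1 sham library, and the difference between tissues was not tested. Cyp2c55 was at -0.86 in jejunum and 0.61 in colon. Cyp2c65 was at -0.61 in jejunum and 0.52 in colon, and its near copy Cyp2c66 at -0.59 in jejunum and 0.53 in colon. Cyp4b1 was at -0.76 in jejunum, -0.77 in ileum and 0.72 in colon. Its pseudogene Cyp4b1-ps2, whose transcript shares 96.4% of 333 bases with Cyp4b1, was at -0.75 in ileum and 0.71 in colon. The 3 Cyp2c genes lie on chromosome 19 and the 2 Cyp4b1 genes on chromosome 4, so these are 2 loci rather than 5 independent genes.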

How the results depend on the processing

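No paired analysis was possible because the labels give 1 library per group and no replicate numbers; tissue, which pairs the surgeries, is already a term of the surgery fit. Leaving out 1 library at a time gave 0 to 3 members called for surgery (0 to 106 genes in all), 15 to 17 (619 to 892) for jejunum against ileum, 25 to 31 (1830 to 1967) for ileum against colon and 31 to 36 (2921 to 3377) for jejunum against colon. At a mean of at least 5 RPKM, with fewer genes tested, 9 members (551 genes) were called for jejunum against ileum and 21 (1966 genes) for jejunum against colon, and 27 were past 2-fold in stomach, 27 in duodenum and 0 in colon. The share of all genes past 2-fold within a tissue was counted only on realigned rows, at a mean of 1 RPKM and a pseudocount of 1. Counts of members past 2-fold at other settings are therefore no result about the family. A fit of all 10 libraries adds those of stomach and duodenum, among them the 2 that held much liver or neural RNA. Members called were 0, 7 and 8 for jejunum against ileum, ileum against colon and jejunum against colon (25, 313 and 778 genes in all). In that fit the surgery value reversed for Cyp2b10 (0.52), Cyp2c40 (1.41), Cyp3a11 (2.23) and Cyp4a10 (1.20). A pseudocount of 0.1 gave 7 members past 2-fold in jejunum and 3 in ileum, and a surgery value of 0.04 for Cyp4a10, which ranged between -0.83 (without colon libraries) and 0.03 (without jejunum libraries) when 1 library was left out. With rows as deposited, values belong to the neighbouring gene: 2 members were past 2-fold in ileum, and reversals were the surgery values of Cyp2e1 (-0.14) and Cyp3a11 (0.19), jejunum against ileum of Cyp2c65 (-0.94) and Cyp3a11 (-0.29), ileum against colon of Cyp2d34 (1.17), Cyp2w1 (2.33) and Cyp3a11 (-1.16), jejunum against colon of Cyp2d34 (2.56), Cyp2w1 (1.44) and Cyp3a11 (-1.44), and VSG against sham of Cyp4a10 (0.02) and Cyp4a31 (0.00) in jejunum and Cyp2e1 (-0.14) in colon. Under median-ratio scaling, for ileum against colon the all-gene calls were 902 and 715 with it and 678 and 1151 without it, and for jejunum against ileum 441 and 291 with it and 333 and 375 without it. Where no cause is given, the cause was not tested.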
